A study of Mus musculus with 6 samples.

Results

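The interferon response and antigen presentation genes are a hand-made list of 37 genes of the MHC class I pathway, the interferon transcription factors, double-stranded RNA sensing and the interferon-stimulated effectors. The list was matched by gene symbol to the Ensembl identifiers of the deposited values, and all 37 were found among 53808 mouse genes. The genes were listed by name and pathway, with earlier results of these data known. RNA-sequencing was performed on 6 clonal lines of MIN6, a mouse insulinoma line that stands in for β cells. The 3 control lines carried Cas9 and a guide RNA (gRNA) to intron 2 of *Snd1*, and the 3 *Snd1* KO lines carried Cas9 and a gRNA to exon 2. *Snd1* encodes a coregulator with nuclease domains that binds RNA. In all 6 lines Cas9-expressing MIN6 cells had been infected with lentivirus, selected with puromycin and cloned, the clones had been screened for SND1 protein, and no line was treated with interferon according to the labels or methods. Each line is 1 clone with 1 library.

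Interferons bind receptors at the cell surface and signal through JAK kinases to transcription factors that include STAT2 and IRF9, which act at a DNA element called the interferon-stimulated response element (ISRE). Cells that sense double-stranded RNA through RIG-I or MDA5 signal through MAVS to IRF3 and IRF7 and start the same response. MHC class I molecules, made of a heavy chain and β2-microglobulin, show peptides cut by the proteasome to cytotoxic T cells, and in β cells their display is known for its place in the autoimmunity of type 1 diabetes.

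Promoter sequences are shown for selected genes of the class I pathway and for a pair of effectors known for strong ISREs. They run from 250 bases before to 50 bases after the annotated start and were taken from RefSeq on GRCm38.p6, which held 30 of the 37 genes and 27025 genes in all. Capitals mark the ISRE letters, searched as GAAA, any pair of bases and GAAA again, or the shorter interferon regulatory factor letters GAANNGAAA, on either strand. The strings differ by 1 base in their spacing, so neither contains the other. The windows are *B2m* at chr2:122147437-122147736 on the plus strand, *H2-K1* at chr17:34000298-34000597 on the minus strand (1 of 2 annotated starts), *H2-D1* at chr17:35262844-35263143, *H2-Q4* at chr17:35379367-35379666, *Psmb8* at chr17:34197945-34198244 and *Ifit3* at chr19:34583279-34583578 on the plus strand, and *Isg15* at chr4:156200769-156201068 on the minus strand.
B2m: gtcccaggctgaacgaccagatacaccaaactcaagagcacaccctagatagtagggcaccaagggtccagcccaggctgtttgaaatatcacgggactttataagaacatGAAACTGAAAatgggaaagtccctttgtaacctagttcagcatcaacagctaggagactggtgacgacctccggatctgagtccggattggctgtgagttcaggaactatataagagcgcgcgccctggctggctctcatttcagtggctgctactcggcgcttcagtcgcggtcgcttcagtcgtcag
H2-K1: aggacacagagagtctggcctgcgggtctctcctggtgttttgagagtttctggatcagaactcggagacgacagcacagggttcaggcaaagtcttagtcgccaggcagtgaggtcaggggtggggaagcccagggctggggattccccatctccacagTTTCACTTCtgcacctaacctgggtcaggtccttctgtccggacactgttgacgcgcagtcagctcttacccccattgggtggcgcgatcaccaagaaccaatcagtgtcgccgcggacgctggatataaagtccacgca
H2-D1: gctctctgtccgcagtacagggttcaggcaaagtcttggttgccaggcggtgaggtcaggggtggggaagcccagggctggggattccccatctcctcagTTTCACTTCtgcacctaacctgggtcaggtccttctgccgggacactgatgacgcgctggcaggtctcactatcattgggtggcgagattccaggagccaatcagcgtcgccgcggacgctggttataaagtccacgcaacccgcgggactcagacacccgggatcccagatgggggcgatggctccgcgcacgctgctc
H2-Q4: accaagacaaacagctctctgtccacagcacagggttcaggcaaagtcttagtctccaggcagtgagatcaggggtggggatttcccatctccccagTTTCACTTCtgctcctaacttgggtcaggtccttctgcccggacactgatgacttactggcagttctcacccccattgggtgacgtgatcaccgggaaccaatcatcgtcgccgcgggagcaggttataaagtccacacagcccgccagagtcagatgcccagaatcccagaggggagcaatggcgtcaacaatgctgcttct
Psmb8: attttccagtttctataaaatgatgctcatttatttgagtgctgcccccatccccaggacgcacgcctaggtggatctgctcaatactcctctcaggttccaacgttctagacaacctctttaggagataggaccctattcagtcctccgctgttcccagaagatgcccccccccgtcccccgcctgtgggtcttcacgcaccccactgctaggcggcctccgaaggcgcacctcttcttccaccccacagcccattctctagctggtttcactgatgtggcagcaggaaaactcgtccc
Ifit3: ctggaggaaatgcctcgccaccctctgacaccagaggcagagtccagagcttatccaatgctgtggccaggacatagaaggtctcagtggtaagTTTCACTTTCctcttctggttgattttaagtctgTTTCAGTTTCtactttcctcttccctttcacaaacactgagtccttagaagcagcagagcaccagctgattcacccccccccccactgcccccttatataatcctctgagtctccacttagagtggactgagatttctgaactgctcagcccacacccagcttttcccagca
Isg15: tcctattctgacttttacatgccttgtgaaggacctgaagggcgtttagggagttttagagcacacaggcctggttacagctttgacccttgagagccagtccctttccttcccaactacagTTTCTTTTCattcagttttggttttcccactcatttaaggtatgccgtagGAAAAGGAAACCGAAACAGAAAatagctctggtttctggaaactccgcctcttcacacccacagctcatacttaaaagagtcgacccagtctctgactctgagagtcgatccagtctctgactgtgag

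The *B2m* window held an ISRE match that began 139 bases before the start. Windows of *H2-K1*, *H2-D1* and *H2-Q4* shared the shorter letters, beginning 90, 150 and 153 bases before their annotated starts. The *Psmb8* window held neither of these 2 strings, and other elements are not reported for it. Among genes not shown, windows of *Ifit2* and *Mavs* held neither string, and *Oas1a* had 2 ISRE matches. *Ifit3* had ISRE matches 156 and 122 bases before the start, and *Isg15* had 3 that overlapped, at 78, 72 and 66 bases, plus the shorter letters at 128 bases. ISRE letters occurred in 12 of the 30 genes with a window (40.0%), against 3.99% of all genes, and the shorter letters in 10 (33.3%), against 8.68%. By role, ISRE letters were in 7 of 12 effectors, 3 of 5 RNA sensing genes, 1 of 5 transcription factors and 1 of 8 class I genes. CCAAT, a common promoter element, was in 13 of the 30 genes (43.3%), beside 41.1% of all genes, with 6 of 8 class I genes, 2 of 5 transcription factors, 2 of 5 RNA sensing genes and 3 of 12 effectors. A match is a description of the letters and was not tested as a binding site.

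The deposited values were TPM, read counts scaled for gene length and library size, and the reads behind them were recovered, 25799900 to 32984553 reads per clone. Gene lengths in these values are summed over all transcripts, so levels and sums are compared here between clones and not between genes. *Snd1* was 113, 119 and 112 TPM in Control 1 to 3 and 14.7, 57.1 and 19.9 TPM in *Snd1* KO 1 to 3. Every *Snd1* KO clone was thus below every control clone, at a mean of 26.7% of control, and *Snd1* KO 2 kept the most RNA. Its log2 fold change was -2.11 (SE 0.45) with an adjusted p of 0.511 (limma), so the targeted gene itself was not called by the rule used below. With clone quality weights it was -2.31 and called (adjusted p = 0.0195, limma, range over the alternatives 0.0195 to 0.986). The 7 β cell markers were present in each clone, with a summed level of 43655 to 81431 TPM. Of the 7 leukocyte markers 2 passed the filter on low values, and the whole list summed to 2.88 to 7.01 TPM in the controls and 2.92 to 4.13 TPM in the *Snd1* KO clones. Acinar and ductal markers summed to at most 0.0637 TPM, and fibroblast and endothelial markers to at most 1.204 TPM. *Gcg*, the glucagon gene of α cells, was 1099.8 TPM in *Snd1* KO 1 and 55.2 to 314 TPM in the other 5 clones. Control 3 and *Snd1* KO 1 stood apart, since a fit that weights each clone by its distance from the model gave them weights of 0.28 and 0.29 against 0.67 to 3.91 for the other 4 clones. For the 33 listed genes that were tested, counts of those whose groups did not overlap are given with and without each of these clones, as are the printed fold changes that moved by over 1.5 times without them.

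The comparison of *Snd1* KO with control asked whether loss of this coregulator moved the interferon and antigen presentation genes. Light chain *B2m* was above every control in all 3 *Snd1* KO clones, as were *Ifit2* and the low-level regulator *Nlrc5*, and the adaptor *Mavs* was lower. No gene of the list met the calling threshold, and the list had no common direction. Of the 37 genes, 33 had a mean of at least 0.5 TPM and were tested with limma on log2(TPM + 1), with Benjamini-Hochberg adjustment over all 17823 genes tested. Called genes had an adjusted p under 0.05 and at least a 2-fold change. By that rule 0 of 33 were called, beside 0.00561% of all genes (1 gene), and limma on the recovered reads (voom) also called 0. Clone quality weights, described with the clones above, called *Psmb8* and *Oas1a*, beside 5.02% of all genes. At an unadjusted p under 0.05 there were 2 of 33, beside 7.96% of all genes, and 4 with voom, beside 8.74%. The lowest adjusted p was 0.423, for *B2m*, and the other 32 lay between 0.607 and 0.996 (limma). Log2 fold changes were positive for 13 and negative for 20, with a median of -0.04 beside 0.04 over all genes tested, and 15 of the 33 changed direction in at least 1 of 18 alternatives. Intervals of 95% lay within a 2-fold change either way for 20 of 33, beside 66.6% of all genes, so for the other 13 a 2-fold change was within the error of these clones.

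Groups did not overlap for 2 genes that were higher in *Snd1* KO, *B2m* and *Ifit2*, beside 9.69% of all genes, and for 1 that was lower, *Mavs*, beside 4.03%. In either direction these are 9.09% of the 33, below the 13.7% of all genes. With 3 clones against 3, the exact two-sided permutation test of a single gene cannot go below 0.1. Quantile normalization gave 2 higher, beside 6.64% of all genes, and 4 lower, beside 7.55%. Without *Snd1* KO 1 there were 3 higher (*B2m*, *Ifit2* and *Mx1*), beside 22.6%, and 2 lower (*Mavs* and *Oas1a*), beside 10.9%. The labels do not say that the clones came from separate infections, and p-values measure only the spread between these clones. In bulk RNA, fewer cells with a transcript and less of it per cell cannot be told apart.

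**Figure D1:**
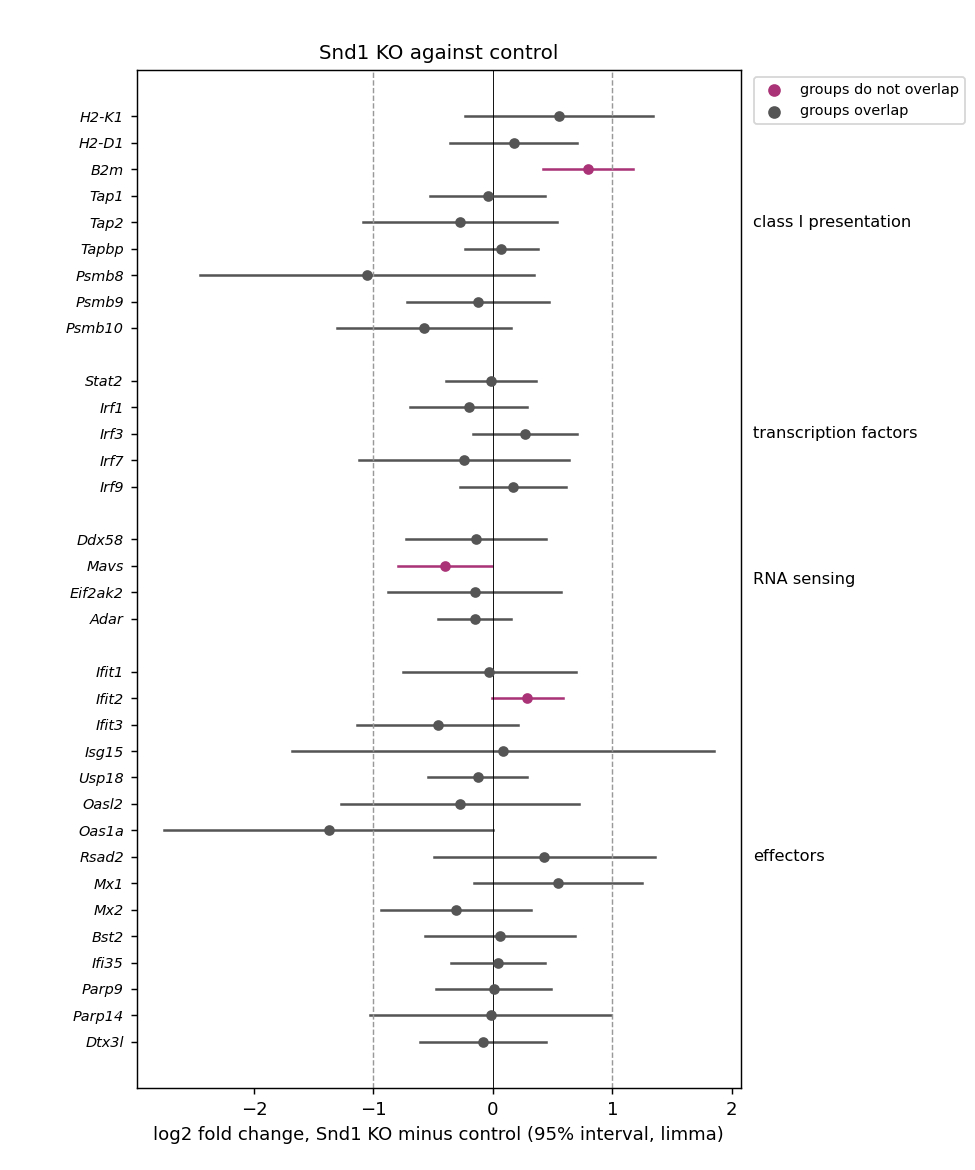
Log2 fold change (*Snd1* KO minus control, log2(TPM + 1) scale) of the 33 genes tested, grouped by role, with bars for the 95% interval. *B2m* has the highest value among class I genes at 0.80, *Psmb8* and *Oas1a* lie lowest at -1.05 and -1.38, and most intervals cross 0.

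The class I pathway was represented by 10 genes, of which 9 were tested and 0 called. *B2m* (ENSMUSG00000060802, chr2:122147686-122153083 on GRCm38), the light chain of every class I molecule, was 106, 77.2 and 75.9 TPM in Control 1 to 3 and 161, 152 and 136 TPM in *Snd1* KO 1 to 3. The lowest *Snd1* KO clone lay above the highest control. The mean was 86.5 ± 17.2 TPM (SD, n = 3) in the controls and 149.7 ± 12.4 TPM (n = 3) in the *Snd1* KO clones, 1.73-fold higher, from 323 to 714 reads per clone. The log2 fold change was 0.80 (SE 0.16, 95% interval 0.42 to 1.18) with an adjusted p of 0.423 (limma), and *B2m* ranked 70 of 17823 genes by p. Over 18 alternatives the log2 fold change was 0.67 to 0.96 and the adjusted p 0.0321 to 0.971 (limma). No 100-base word of its longest coding transcript occurred in transcripts of another gene.

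The heavy chain *H2-K1* (ENSMUSG00000061232, chr17:33996017-34000347) was 120, 87.9 and 225 TPM in the controls and 211, 211 and 171 TPM in the *Snd1* KO clones. Control 3 was the highest of the 6 clones, so the groups overlapped, while Control 1 and 2 lay below every *Snd1* KO clone. The mean was 144 ± 71.7 TPM (SD, n = 3) in the controls and 197 ± 23.1 TPM (n = 3) in the *Snd1* KO clones, with a log2 fold change of 0.55 (SE 0.33, adjusted p = 0.678, limma). It was 0.25 without Control 2, and without Control 3 it was 0.93 (adjusted p = 0.133, limma, range over the alternatives 0.0585 to 0.986). The other heavy chain, *H2-D1* (ENSMUSG00000073411, chr17:35262730-35267499), was 342, 339 and 521 TPM in the controls and 549, 376 and 420 TPM in the *Snd1* KO clones. As with *H2-K1*, Control 3 stood well above the other controls and overlapped *Snd1* KO. The groups' means were 400 ± 104 and 448 ± 89.7 TPM (SD, n = 3 each), a difference smaller than the spread in either group. Summed, the heavy chains were 462, 427 and 746 TPM in the controls and 760, 587 and 591 TPM in the *Snd1* KO clones. Within *H2-D1*, 4.64% of 100-base words were shared with another gene, and in *H2-K1* none.

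**Figure D2:**
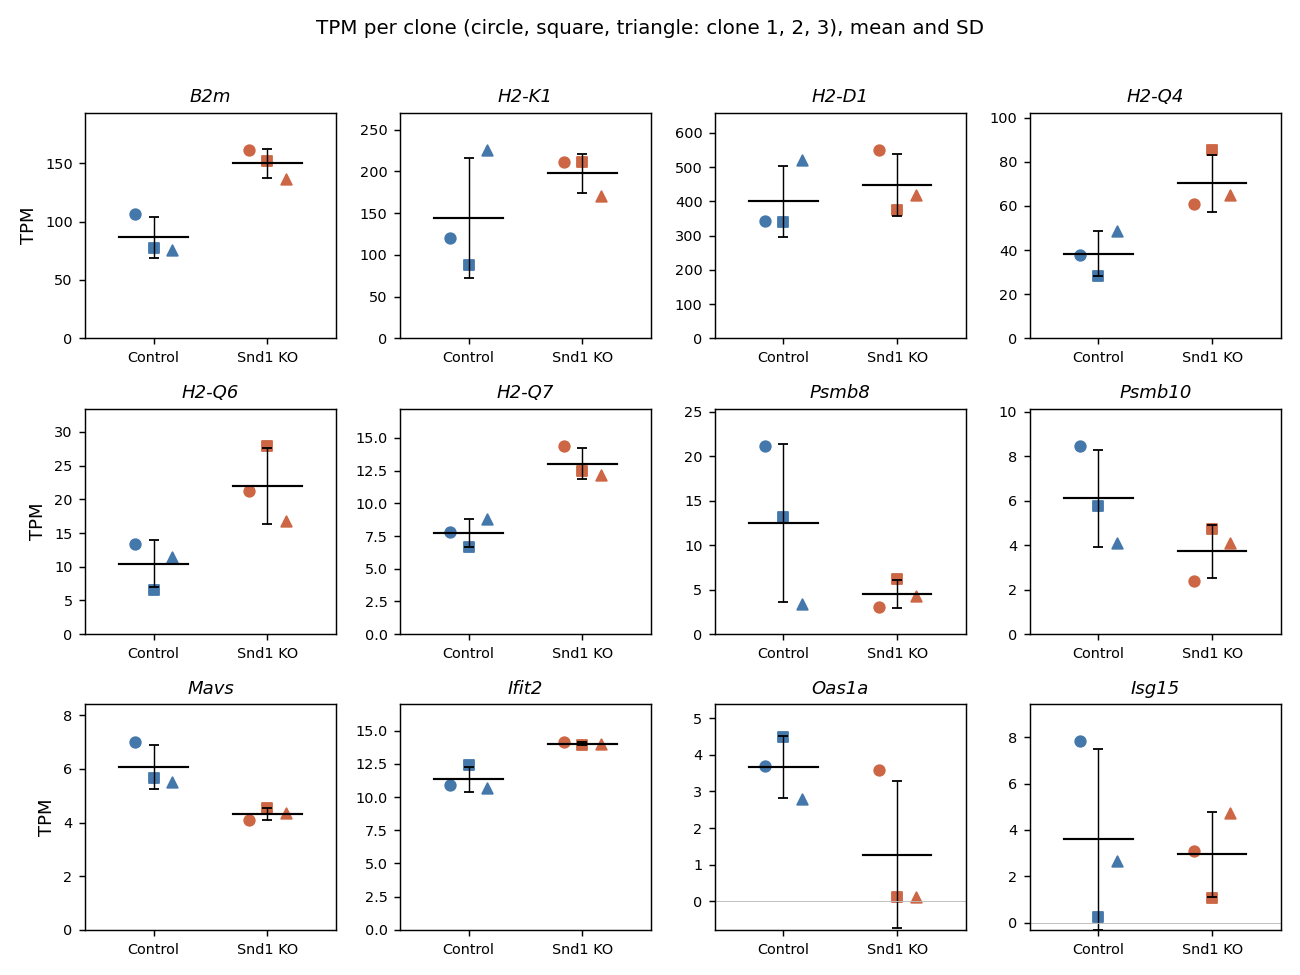
TPM in each of the 6 clones for selected genes, with control and *Snd1* KO clones as points and bars for the group mean and SD (n = 3). *B2m* shows *Snd1* KO clones at 136 to 161 TPM above controls at 75.9 to 106 TPM, while for *Psmb8* the high values are those of Control 1 and 2 alone, at 21.1 and 13.1 TPM.

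Peptide supply was read from the transporter and immunoproteasome genes. *Tap1*, a subunit of the transporter that brings peptides into the endoplasmic reticulum, was 4.94, 4.02 and 3.11 TPM in the controls and 3.70, 4.21 and 3.57 TPM in the *Snd1* KO clones, with every *Snd1* KO clone inside the control range. Its partner *Tap2* was 3.85 to 11.04 TPM over the 6 clones. *Tapbp*, or tapasin, which joins the transporter to class I molecules, was 154 to 202 TPM. The groups overlapped for all 3 genes.

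The immunoproteasome subunit *Psmb8* (ENSMUSG00000024338, chr17:34197721-34201454) was 21.1, 13.1 and 3.39 TPM in the controls and 3.07, 6.20 and 4.27 TPM in the *Snd1* KO clones. Control 1 and 2 were above the other 4 clones, and Control 3 lay among the *Snd1* KO clones. The mean was 12.6 ± 8.89 TPM (SD, n = 3) in the controls and 4.51 ± 1.58 TPM (n = 3) in the *Snd1* KO clones. The log2 fold change was -1.05 (SE 0.59, adjusted p = 0.656, limma), and without Control 3 it was -1.72 (adjusted p = 0.126, limma). Without Control 1 it was -0.55. With clone quality weights it was -1.54 and called (adjusted p = 0.0348, limma). Over all alternatives the log2 fold change was -1.72 to -0.55 and the adjusted p 0.0348 to 0.986 (limma).

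A second such subunit, *Psmb10*, was 8.46, 5.79 and 4.12 TPM in the controls and 2.39, 4.71 and 4.09 TPM in the *Snd1* KO clones, again with Control 1 and 2 on top and Control 3 among *Snd1* KO. Its log2 fold change was -0.58 (adjusted p = 0.637, limma). Leaving out Control 3 gave -0.79, leaving out *Snd1* KO 1 gave -0.36 and leaving out Control 1 gave -0.35. *Psmb9* was 2.32 to 4.18 TPM. Summed, the 3 immunoproteasome subunits were 33.5, 21.9 and 10.4 TPM in the controls and 7.86, 15.1 and 10.7 TPM in the *Snd1* KO clones. The constitutive counterparts *Psmb5*, *Psmb6* and *Psmb7* summed to 549 ± 15.3 TPM in the controls and 535 ± 33.8 TPM in the *Snd1* KO clones (SD, n = 3 each), a smaller difference than the spread in *Snd1* KO. *Nlrc5*, the transactivator of class I genes, had 21, 13 and 18 reads in the controls and 28, 68 and 54 reads in the *Snd1* KO clones. Every *Snd1* KO clone was above every control at a mean of 0.129 against 0.390 TPM, but the gene was under the filter and was not tested.

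None of the 5 interferon transcription factors was called, their groups overlapped, and their log2 fold changes lay between -0.24 and 0.27. *Stat2* was 15.01, 14.9 and 11.5 TPM in the controls and 12.02, 14.4 and 14.4 TPM in the *Snd1* KO clones. *Irf9*, its DNA-binding partner, was 3.56, 4.07 and 4.12 TPM in the controls and 4.05, 5.53 and 4.11 TPM in the *Snd1* KO clones. Neither separated the groups, since Control 1 and 2 lay above every *Snd1* KO clone for *Stat2* while Control 3 lay below them, and Control 2 and 3 lay above *Snd1* KO 1 for *Irf9*. *Irf7*, which is itself induced by interferon and amplifies the response, was 3.97, 1.90 and 1.11 TPM in the controls and 2.40, 1.52 and 1.15 TPM in the *Snd1* KO clones. The highest and the lowest clone were both controls. *Irf1*, an activator of class I genes, was 13.6 to 23.02 TPM, and *Irf3*, activated downstream of MAVS, was 8.62 to 15 TPM.

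Of the 5 genes for sensing and answering double-stranded RNA, 4 were tested and 0 called, and all 4 log2 fold changes were negative, at -0.40 to -0.14 with a median of -0.15, although *Eif2ak2* changed direction in at least 1 alternative. *Mavs* (ENSMUSG00000037523, chr2:131234063-131248025), the mitochondrial adaptor of the RNA sensors, was 7.00, 5.64 and 5.52 TPM in the controls and 4.09, 4.53 and 4.34 TPM in the *Snd1* KO clones. Every *Snd1* KO clone lay below every control. The mean was 6.06 ± 0.822 TPM (SD, n = 3) in the controls and 4.32 ± 0.222 TPM (n = 3) in the *Snd1* KO clones, 71.3% of control. The log2 fold change was -0.40 (SE 0.17, adjusted p = 0.607, limma) and lay between -0.50 and -0.31 over 18 alternatives.

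The sensors upstream of MAVS did not separate the groups. *Ddx58*, which encodes RIG-I, was 3.26, 2.94 and 1.76 TPM in the controls and 2.76, 1.93 and 2.15 TPM in the *Snd1* KO clones. *Ifih1*, which encodes MDA5, had 48, 9 and 9 reads in the controls and 15, 26 and 32 reads in the *Snd1* KO clones and was not tested. Control 1 was the highest clone for both sensors. *Eif2ak2*, the RNA-dependent kinase PKR that halts translation, was 43.3, 41.4 and 21.4 TPM in the controls and 39.4, 24.9 and 28.3 TPM in the *Snd1* KO clones, with Control 3 the lowest of all clones. *Adar*, the editing enzyme that marks cellular double-stranded RNA, was 10.2 to 12.9 TPM, and 16.9% of its 100-base words were shared with another gene.

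Among the 17 effectors 15 were tested and 0 called, with 7 positive and 8 negative log2 fold changes. *Ifit2* (ENSMUSG00000045932, chr19:34550694-34576419), an inhibitor of viral translation, was 10.9, 12.4 and 10.7 TPM in the controls and 14.2, 13.9 and 14.03 TPM in the *Snd1* KO clones. The *Snd1* KO clones lay close together and above every control. The reads were 282, 305 and 239 in the controls and 330, 312 and 338 in the *Snd1* KO clones. Their closeness was not set against counting error. The mean was 11.3 ± 0.939 TPM (SD, n = 3) in the controls and 14.03 ± 0.133 TPM (n = 3) in the *Snd1* KO clones, 1.24-fold higher, with a log2 fold change of 0.29 (SE 0.12, adjusted p = 0.607, limma) that lay between 0.24 and 0.35 over 18 alternatives. Its relatives did not share the pattern. *Ifit1*, which binds RNA without a host cap, had 12, 12 and 11 reads in the controls and 15, 3 and 17 reads in the *Snd1* KO clones. *Ifit3*, a partner of IFIT1 with the ISRE matches shown, was 1.22 to 3.20 TPM from 11 to 32 reads. It shared 31.7% of its 100-base words with another gene.

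*Oas1a* (ENSMUSG00000052776, chr5:120896256-120907521), a synthetase that activates the RNA-degrading RNase L, was 3.70, 4.49 and 2.79 TPM in the controls and 3.60, 0.11 and 0.10 TPM in the *Snd1* KO clones. The reads were 40, 46 and 26 in the controls and 35, 1 and 1 in the *Snd1* KO clones. *Snd1* KO 2 and 3 were at 1 read each, whereas *Snd1* KO 1 was within the control range. The log2 fold change was -1.38 (SE 0.58, adjusted p = 0.607, limma). Without *Snd1* KO 1 it was -2.06 (adjusted p = 0.139, limma). With clone quality weights it was -2.08 and called (adjusted p = 0.0217, limma), and over the alternatives it lay between -3.33 and -1.03 with an adjusted p of 0.0217 to 0.986 (limma). Of its 100-base words 40.9% were shared with another gene, the paralog *Oas1g*, which was 1.13 to 1.401 TPM in the controls and 1.15 to 2.14 TPM in the *Snd1* KO clones, so reads of the pair are uncertain.

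*Isg15*, a ubiquitin-like protein whose gene has 3 overlapping ISRE matches in the sequence above, had 34, 1 and 10 reads in the controls. It had 12, 4 and 19 reads in the *Snd1* KO clones. Its level was 7.85, 0.24 and 2.67 TPM in the controls and 3.08, 1.06 and 4.71 TPM in the *Snd1* KO clones, the widest range of the list on log2(TPM + 1). The highest and the lowest clone were both controls, and the 95% interval of its log2 fold change, -1.68 to 1.85, holds a 2-fold change in either direction. *Usp18*, the protease that removes ISG15, was 28.3 to 43.6 TPM.

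*Rsad2*, the antiviral enzyme viperin, was 9.27, 7.72 and 22.2 TPM in the controls and 19.8, 12.2 and 17.5 TPM in the *Snd1* KO clones. *Parp14*, a mono-ADP-ribosyltransferase, was 12.9, 7.23 and 3.31 TPM in the controls and 5.21, 7.59 and 7.91 TPM in the *Snd1* KO clones. *Oasl2*, an OAS-like protein, was 3.01, 1.94 and 0.36 TPM in the controls and 1.021, 1.28 and 0.94 TPM in the *Snd1* KO clones. For all 3 genes Control 3 lay at 1 end of the 6 clones, highest for *Rsad2* and lowest for the others. The partners *Parp9* and *Dtx3l* were 7.47 to 12.9 and 11.4 to 21.02 TPM, *Bst2* (tetherin) 2.58 to 5.30 TPM and *Ifi35* 21.1 to 30.3 TPM.

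The dynamin-like antiviral GTPases *Mx1* and *Mx2* were low. *Mx1* had 22, 36 and 22 reads in the controls and 30, 93 and 85 reads in the *Snd1* KO clones, and *Mx2* had 61, 50 and 22 reads in the controls and 19, 27 and 27 reads in the *Snd1* KO clones. Their groups overlapped, for *Mx1* at Control 2 and *Snd1* KO 1 and for *Mx2* at Control 3. *Xaf1*, with 2 to 28 reads, and *Gbp2*, with at most 3 reads per clone, were not tested. A count of 3 reads is the floor used here, so *Gbp2* was at or under it in each clone.

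**Figure D3:**
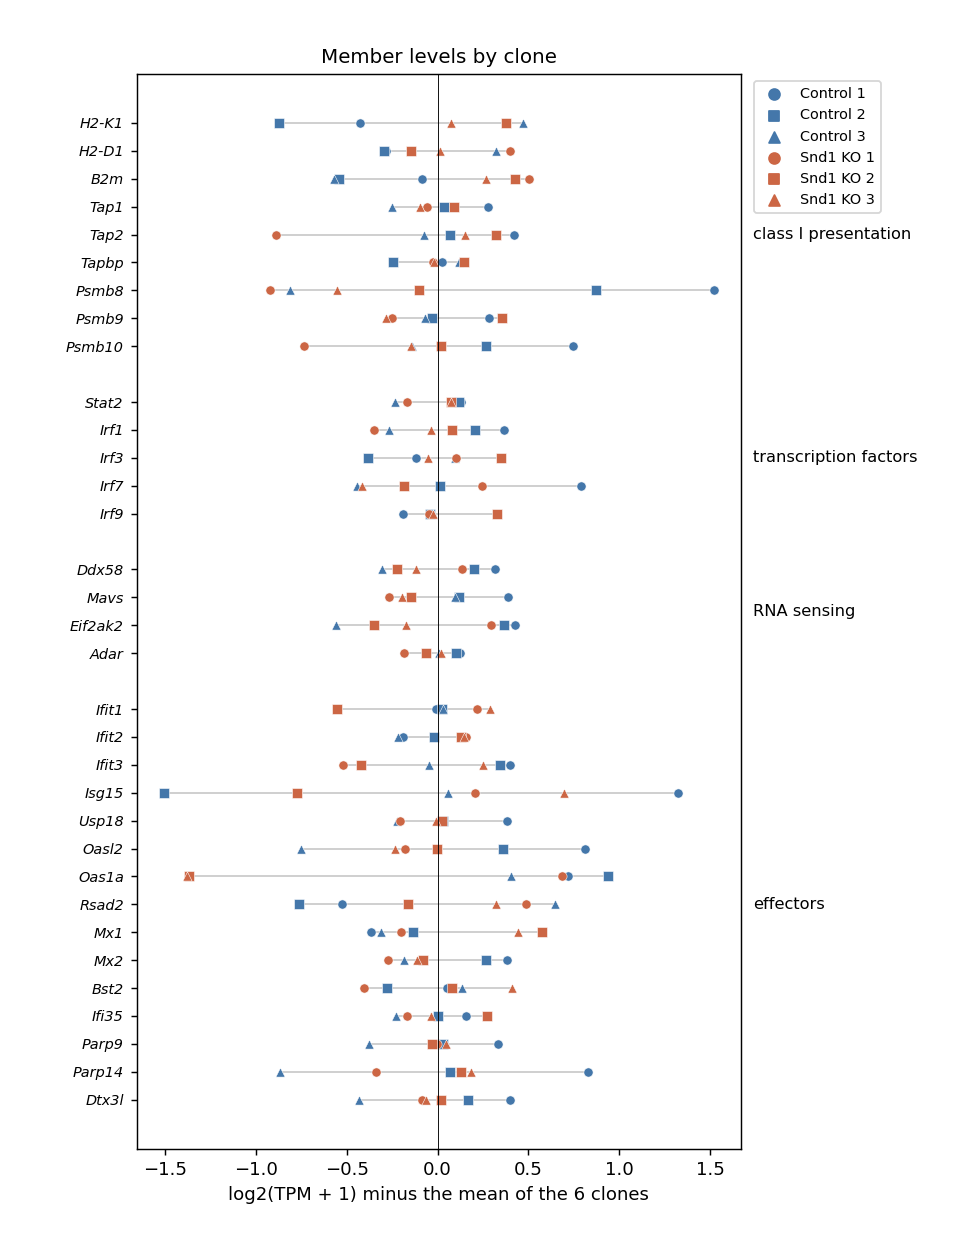
Deviation of each gene from its mean over the 6 clones (log2(TPM + 1) scale), with 1 line of points per gene, grouped by role, and a colour and shape for each clone. Control 1 has the highest value for 19 of the 33 genes tested and Control 3 the lowest for 13.

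Clones also differed within each group. Control 1 was the highest clone for 19 of 33 genes (57.6%, beside 17.1% of all genes tested), and Control 3 was the lowest for 13 (39.4%, beside 28.9%). *Snd1* KO 1 was the lowest for 9 (27.3%, beside 19.9%). The median deviation of the 33 genes from their means was 0.32 in Control 1, 0.03 in Control 2 and -0.18 in Control 3 on the log2 scale. It was -0.09, 0.02 and -0.02 in *Snd1* KO 1 to 3, inside the range of the controls, and over all genes it was -0.11 to 0.05. Effectors spread most, from 0.38 in Control 1 to -0.22 in Control 3, with *Snd1* KO 1 at -0.17 and *Snd1* KO 3 at 0.14. RNA sensing genes were 0.35 in Control 1 and 0.16 in Control 2 and between -0.18 and -0.03 in the other 4 clones.

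**Figure D4:**
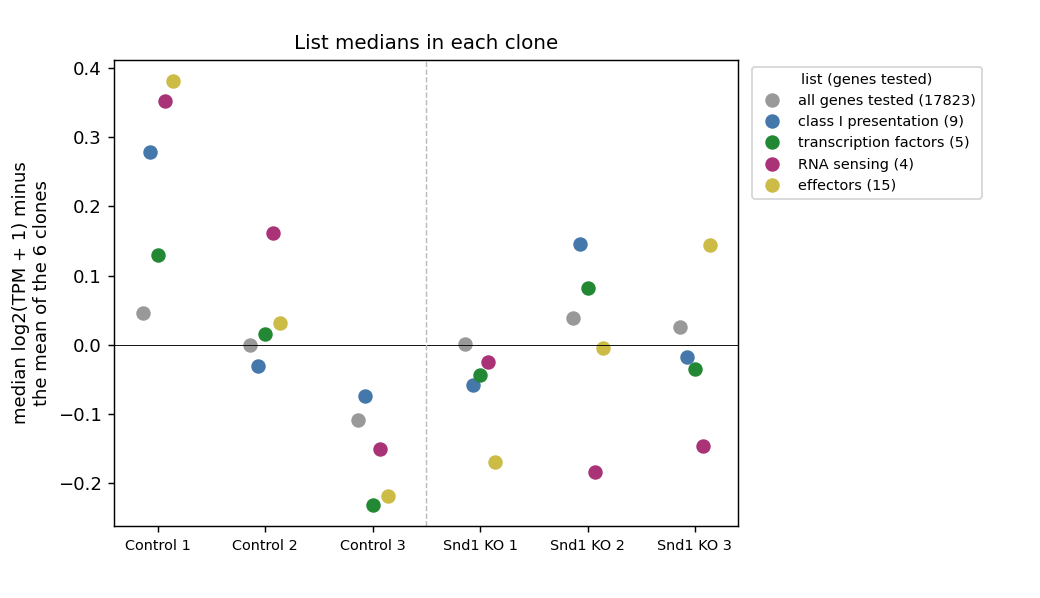
Median deviation (log2(TPM + 1) scale) of the genes of each role in each of the 6 clones, beside that of all genes tested. Control 1 lies above the other clones in all 4 roles, and the median over all 33 genes spans 0.32 in Control 1 and -0.18 in Control 3 within the control group.

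Leaving out Control 3 changed these counts more than leaving out any other clone. Control 3 lay nearer to the *Snd1* KO mean than to the mean of Control 1 and 2 for 26 of 33 genes (78.8%, beside 58.6% of all genes). Without it, groups did not overlap for 20 of the 33. Of these 14 (42.4%, beside 17.9% of all genes) were lower in *Snd1* KO, namely *Psmb8*, *Psmb10*, *Stat2*, *Irf1*, *Ddx58*, *Mavs*, *Eif2ak2*, *Adar*, *Ifit3*, *Usp18*, *Oasl2*, *Oas1a*, *Mx2* and *Dtx3l*. The 6 that were higher (18.2%, beside 17.2%) were *B2m*, *H2-K1*, *H2-D1*, *Irf3*, *Ifit2* and *Rsad2*. At an unadjusted p under 0.05 there were then 8 genes, beside 13.9% of all genes, and 0 were called. Markers of other cell types differed between the controls as well. *Lyz2*, a myeloid lysozyme, had 28, 36 and 0 reads in the controls and 2, 3 and 3 reads in the *Snd1* KO clones, and *Ptprc*, the pan-leukocyte marker, had 5, 10 and 0 reads in the controls and 1, 0 and 4 reads in the *Snd1* KO clones. The summed leukocyte list was 7.01, 6.40 and 2.88 TPM in the controls and 2.92, 3.76 and 4.13 TPM in the *Snd1* KO clones, a split that *Lyz2* carried. Of the other listed leukocyte genes, *Adgre1* was 0.137 and 0.144 TPM in Control 1 and 2 and 0 in the other 4 clones, *Csf1r* and *Cd79a* were lower in Control 1 and 2 than in Control 3, *Cd68* was lowest in Control 2, and *Cd3e* was at most 0.0410 TPM. The fibroblast and endothelial list (*Col1a1* and *Pecam1*) summed to 1.11, 1.204 and 0.128 TPM in the controls and 0.411, 0.256 and 0.414 TPM in the *Snd1* KO clones. Each line was expanded after seeding of single cells, so these low levels are not a measure of other cell types. The source of these reads and their part in the result were not tested.

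A further 83 genes of the pathway were listed, of which 60 were tested and 0 called. At an unadjusted p under 0.05 there were 7, beside 7.96% of all genes, with 31 positive and 29 negative log2 fold changes among the 60. Groups did not overlap for 5 of the 60 that were higher in *Snd1* KO, beside 9.69% of all genes, and 1 that was lower, beside 4.03%. Of the 9 interferon genes none passed the filter. *Ifna2* had 1 read in *Snd1* KO 3 and the other 8 had none in any clone. For *Ifnb1* the floor of 3 reads is 0.698 to 0.808 TPM, and a level below this floor is not excluded at this depth. The receptor chains *Ifnar1* and *Ifnar2* were present at 17.8 to 27.7 and 7.37 to 12.5 TPM, with overlapping groups.

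In the receptor and JAK-STAT list 14 of 16 genes were tested and 2 did not overlap (14.3%, beside 13.7% of all genes), a share near that of all genes. The kinase *Jak2*, which signals from the interferon-γ receptor, was 20.8, 20.2 and 31.0 TPM in the controls and 34.1, 37.7 and 54.7 TPM in the *Snd1* KO clones, with a log2 fold change of 0.79 (SE 0.24, adjusted p = 0.568, limma). With clone quality weights it was 1.23 and called (adjusted p = 0.0195, limma, range over the alternatives 0.0195 to 0.986). *Ptpn2*, a phosphatase that restrains JAK-STAT signaling and lies in a type 1 diabetes risk locus, was 14.7, 11.7 and 21.4 TPM in the controls and 34.6, 25.3 and 23.5 TPM in the *Snd1* KO clones, with a log2 fold change of 0.78 (SE 0.25, adjusted p = 0.568, limma). For each, all *Snd1* KO clones lay above all controls.

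In the list of other class I and proteasome genes 15 of 16 were tested, 3 were higher and 1 was lower without overlap, together 26.7% beside 13.7% of all genes (9.69% higher and 4.03% lower). *H2-Q4*, a Qa-region class I heavy chain, was 37.9, 28.4 and 48.8 TPM in the controls and 60.8, 85.1 and 64.7 TPM in the *Snd1* KO clones, with a log2 fold change of 0.87 (SE 0.22, adjusted p = 0.560, limma). It was 1.002 and called with clone quality weights (adjusted p = 0.0231, limma, range over the alternatives 0.0231 to 0.986). *H2-Q6* was 13.3, 6.59 and 11.4 TPM in the controls and 21.3, 27.9 and 16.8 TPM in the *Snd1* KO clones, with a log2 fold change of 1.03 (SE 0.29, adjusted p = 0.568, limma). These Qa-region genes were named because their groups did not overlap. Like *B2m* they were higher in every *Snd1* KO clone, whereas *H2-K1* and *H2-D1* overlapped and *H2-M3* was lower.

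*H2-Q7* was 7.80, 6.63 and 8.80 TPM in the controls and 14.4, 12.5 and 12.2 TPM in the *Snd1* KO clones, with a log2 fold change of 0.69 (SE 0.16, adjusted p = 0.537, limma). The 3 Qa-region genes shared 13.9% (*H2-Q4*), 13.0% (*H2-Q6*) and 16.4% (*H2-Q7*) of their 100-base words with other genes, so their reads are uncertain. *H2-Q6* and *H2-Q7* shared most of these words with each other, so that pair is not independent. *H2-Q4* shared most of its words with *Gm11131*, and its independence from the pair was not tested. *H2-M3*, which presents peptides that begin with formylmethionine, went the other way, at 7.16, 4.602 and 5.62 TPM in the controls and 1.75, 3.22 and 4.04 TPM in the *Snd1* KO clones, with a log2 fold change of -0.79 (SE 0.28, adjusted p = 0.591, limma), or -0.54 without *Snd1* KO 1. All control clones were above all *Snd1* KO clones. In the nucleic acid sensing list 13 of 17 genes were tested with no separation of groups. *Tmem173*, which encodes the DNA-response adaptor STING, was under the filter, at 0.38, 0.48 and 0.35 TPM in the controls and 0, 0 and 0.08 TPM in the *Snd1* KO clones, with no overlap of the groups.

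The other 25 interferon-stimulated genes, of which 18 were tested, had 0 called and no groups without overlap, with 8 positive and 10 negative log2 fold changes. Their median was -0.05.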

How the data were processed

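RNA-sequencing of 3 control and 3 *Snd1* KO clones was grouped by the sample labels. Per the labels, reads were processed with FastQC, Trimmomatic, HISAT2 and HTSeq on mm10, and the authors deposited TPM values per gene, 1 library per clone. Versions, annotation and the strand setting of the counting are not given in the sources used here. TPM times the summed exon length of all transcripts (GENCODE M21, GRCm38) gave whole reads, within 0.01, for 93.5% of values, and for 98.8% of values above 0 after a search for the length of 1297 genes. Since lengths are summed over transcripts, levels should not be compared between genes with different numbers of transcripts. Depth was 25799900 to 32984553 reads, and floors of 3 reads cover counting error only.

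Genes whose mean reached 0.5 TPM were compared on log2(TPM + 1), a scale that understates the change of low genes, with limma 3.58.1 (moderated by eBayes, trend on) under R 4.3.3 and Benjamini-Hochberg adjustment over all genes tested. Promoter letters, shared 100-base words and plots were made in Python 3.11.15 (matplotlib 3.10.9, numpy 2.4.6, pandas 2.3.3). The 18 alternatives were pseudocounts of 0.1 and 0.01, no filter, a filter at 5 TPM, quantile normalization, median-ratio scaling, TPM rescaled after removal of insulin and mitochondrial genes, no trend, a robust trend, clone quality weights, voom on recovered reads, a replicate block and leaving out each clone.

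The members and the lists were chosen with earlier results of these data known. Values in each clone are given for tested members whose groups did not overlap, with an unadjusted p under 0.05, with a 2-fold change or among the 8 widest ranges, and for 14 genes set by name (*H2-K1*, *H2-D1*, *B2m*, *Tap1*, *Psmb8*, *Nlrc5*, *Stat2*, *Irf7*, *Irf9*, *Ifih1*, *Ddx58*, *Eif2ak2*, *Isg15*, *Ifit1*). Other members are given by range, except *Mx1* and *Mx2*. Of the other pathway genes those with groups that did not overlap are named, at most 4 per role, and *Ifna2*, *Ifnb1*, *Ifnar1*, *Ifnar2*, *Oas1g* and the constitutive proteasome genes were added after their values were seen. 92 ERCC spike-in controls were left out.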

Additional observations from a re-analysis of the deposited data

How the results depend on the processing

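The median log2 fold change of the tested members, -0.04, moved by less than the spread between clones (0.18) under all 18 alternatives, and was -0.19 to 0.07 when each clone was left out. The filter at 5 TPM left 19 members, and no filter left 37. Of 33 tested members 15 changed direction in at least 1 alternative, *Isg15*, *Parp14*, *Irf7*, *Tap1* and *Usp18* among them. For the 13 genes of the lists named with a fold change, *Snd1* not among them, there were 231 values under alternatives. Most of these genes were chosen for separated groups or large changes. Of the values 227 kept their direction and their side of the threshold, and none changed direction. The other 4 passed the threshold with clone quality weights, namely *Psmb8* (-1.54), *Oas1a* (-2.08), *Jak2* (1.23) and *H2-Q4* (1.002). With these weights the called genes were 2 of the 33, *Psmb8* and *Oas1a* as just named, and 895 of all genes (5.02%). The weights gave 13 of the 33 an unadjusted p under 0.05, beside 32.6% of all genes. The count over all genes, 1, was 0 without a filter on low values, 0 without a trend, 0 with voom on recovered reads and 0 to 2 when each clone was left out. Genes whose groups did not overlap numbered 3, and 6 with quantile normalization (2 higher and 4 lower), where the share of higher genes among all that did not overlap was 46.8% in place of 70.6%. Without Control 3 they numbered 20, with 6 higher, beside 17.2% of all genes, and 14 lower, beside 17.9%. Without *Snd1* KO 1 they numbered 5, with 3 higher, beside 22.6%, and 2 lower, beside 10.9%. They numbered 3 to 6 when each of the other 4 clones was left out. For those counts the share over all genes was not computed, so they are not read further. Leaving out a clone also relaxes the criterion, since fewer clones must separate. Same-numbered clones did not deviate together (correlations 0.05, -0.12 and -0.07 across genes), and with a replicate block 0 genes were called. The cause of these changes was not tested. Counts of few reads, as for *Isg15*, *Ifit1* and *Oas1a*, carry a large counting error beside the spread between clones.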
